A study of Mus musculus with 6 samples.

Results

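Chemokines are small secreted proteins that guide leukocytes, and their receptors are G protein-coupled receptors on the cells that follow them. The 43 genes described here are 29 ligands and 14 receptors. They were taken from a fixed list of symbols, each matched to probe sets whose annotation names that gene alone, out of 19938 genes on the array. RNA came from 6 mammary tumours of female MMTV-PyMT+ mice of the FVB strain, aged 15 weeks. In all of these mice the polyoma middle T oncogene is driven by the mouse mammary tumour virus promoter, which is active mainly in mammary epithelium, so the tumours arise in that epithelium. In the DPM group, 3 tumours came from animals dosed with 10 mg/kg of DPM, and in the vehicle group 3 came from animals given vehicle alone. Both arms were injected intraperitoneally from 4 weeks of age for 11 weeks, on 5 days out of every 7 (2 days off). DPM is not spelled out in the labels; from knowledge of the study it is taken to be dipyridamole, which blocks nucleoside uptake and phosphodiesterases.

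The family is named after the spacing of the first cysteines of the protein, which gives the CC, CXC, CX3C and XC classes. Most ligands are made on demand by macrophages, fibroblasts, endothelium or epithelium after inflammatory signals, while a few are made steadily and set the normal traffic of lymphocytes. In mammary tumours, ligands of Ccr2 are best known for bringing in monocytes that become tumour macrophages, ligands of Cxcr3 for bringing in T and NK cells, and Cxcl12 with Cxcr4 for tumour cell migration. Many genes of the family lie side by side. In the RefSeq annotation of GRCm38.p6, 12 of the 43 are on chromosome 11, 10 on chromosome 5 and 8 on chromosome 9. Examples of neighbours with no other protein-coding gene between them are Ccl5, Ccl9, Ccl6, Ccl3 and Ccl4 on chromosome 11, and Cxcl3, Cxcl15, Cxcl1 and Cxcl2 on chromosome 5.

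All values below are log2 intensities of 1 probe set per gene after quantile normalisation, and a difference is DPM minus vehicle on that scale, with n = 3 arrays in each group. A level depends on the probes of its gene, so levels of different genes are not compared. A gene is called measured where its mean over the 6 arrays was at least 7.24, the 25th percentile of all genes. The arrays numbered 3 had deposited upper quartiles of 869 (DPM) and 887 (vehicle), against 717 to 748 on the other 4, before normalisation. Markers of luminal mammary epithelium (Epcam, Krt8, Krt18, Krt19, Cdh1 and Elf5) were all measured, with a summed linear intensity of 30061 to 33652 on DPM and 29611 to 34538 on vehicle arrays. Markers of basal mammary epithelium (Krt5, Krt14, Krt17, Acta2 and Trp63) were also all measured, and their sums did not overlap, at 3969.96 to 5660.3 on DPM and 6442 to 8109.9 on vehicle arrays. All 5 had the lower mean in DPM tumours, with a median difference of -0.60, and 0 were called. Endothelial markers (5 of 5 measured) all had the higher mean in DPM tumours, with overlapping sums of 3106 to 3886 on DPM and 3008 to 3293 on vehicle arrays. The part of either in the chemokine differences was not tested. Among leukocyte markers, 8 of 8 for macrophages, 5 of 8 for neutrophils, 3 of 8 for T cells and 0 of 5 for NK cells were measured. Sums of markers here are over every marker named on the array. None of the markers had an intensity of 0 on any array.

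Of the 43 genes, 30 were measured and 13 were not. The 13 were the ligand genes Cxcl2, Cxcl3, Cxcl5, Cxcl11 and Cxcl15 and the receptor genes Ccr1, Ccr2, Ccr3, Ccr6, Ccr9, Cxcr5, Cxcr6 and Xcr1. Thus 24 of 29 ligands and 6 of 14 receptors were measured, where the filter by its definition kept 14953 of all 19938 genes. Because a level depends on the probes, these counts do not compare the expression of ligands and receptors. No member differed past the threshold. The limma fit called 0 of the 30 at an adjusted p below 0.05, as it did 0 of all 14953 genes tested (0%), and the smallest adjusted p of a member was 0.9996.

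The members with the smallest unadjusted p-values were ligands of T cell, NK cell and monocyte receptors, each with the lower mean in DPM tumours. At an unadjusted p under 0.05 there were 5 of the 30 measured members (16.7%), namely Cxcl10, Cxcl9, Ccl3, Cxcl16 and Cx3cl1, where the share of all genes was 3.87%. All 5 had the lower mean in DPM tumours, a direction found at that p for 2.19% of all genes. The count was 11 without DPM replicate 1 (5.04% of all genes). It was 2 without DPM replicate 3 (2.82%), without vehicle replicate 2 (4.56%) or without vehicle replicate 3 (3.02%). Of the 30, 23 had the lower mean in DPM tumours (76.7%, against 49.7% of all genes), and the median difference was -0.08 against 0.00 for all genes tested. The number lower was 16 without DPM replicate 2 (49.1% of all genes), 17 without DPM replicate 3 (49.1%) and 18 without vehicle replicate 3 (51.1%). The values of DPM and vehicle arrays did not overlap for 5 of the 30 (6.97% of all genes). These were Cxcl9, Cxcl10, Cxcl16 and Cx3cl1, with DPM below (3.48% of all genes), and Ccl24, with DPM above (3.49%). A two-sided exact permutation test of 3 against 3 arrays gives p = 0.1, its smallest value, for every gene without overlap. It therefore adds nothing to the separation of these 5. Among the 13 below the filter, the DPM values of Ccr6 were also all under the vehicle values. Because the members were chosen with results of these arrays known, these shares describe the genes and do not test them as a group.

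**Figure D1:**
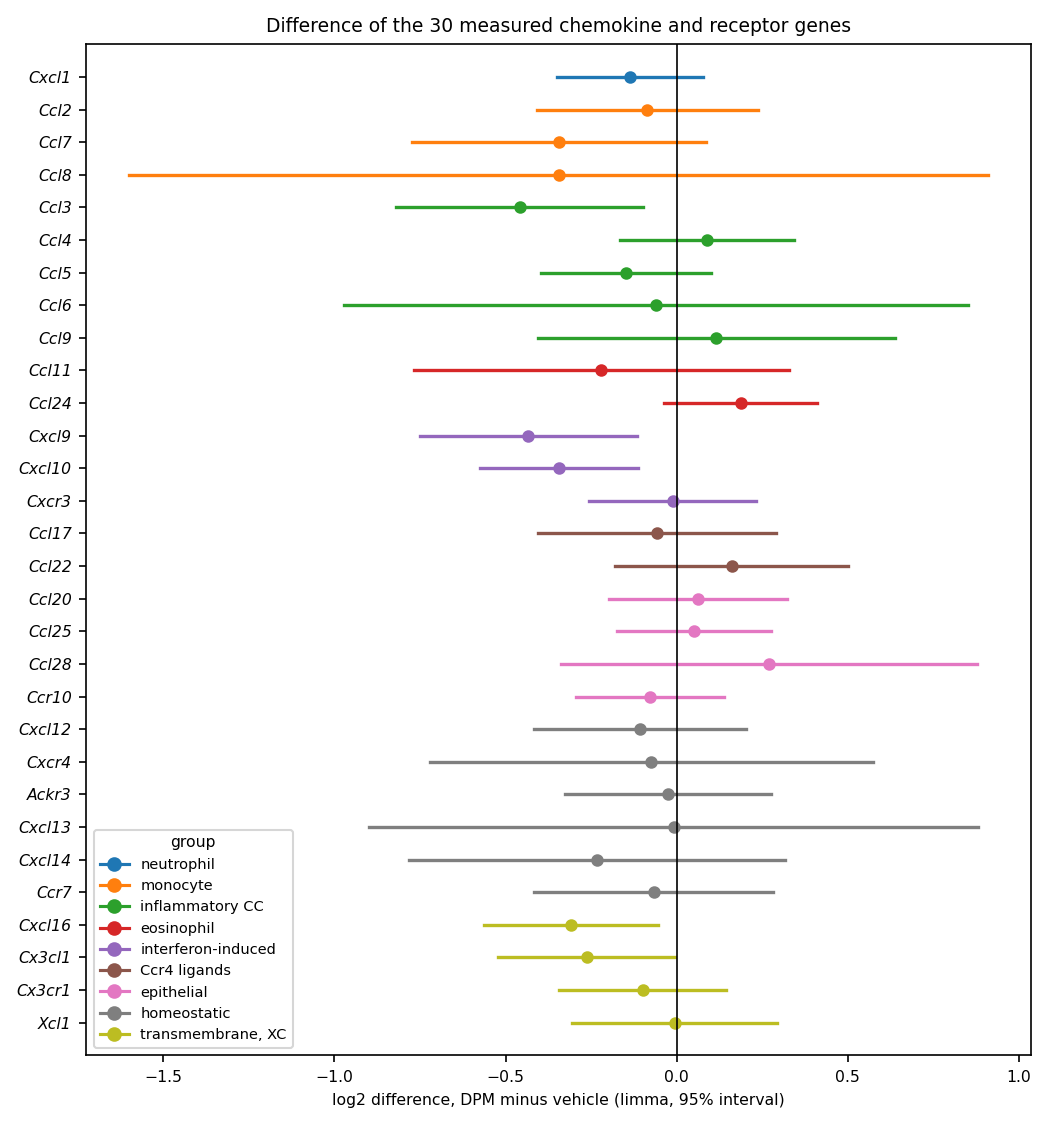
Log2 difference between DPM and vehicle tumours (x axis) for each of the 30 measured genes (y axis), with the 95% interval of the limma fit, coloured by role group. The points run from -0.46 (Ccl3) to 0.27 (Ccl28), and the intervals of Cxcl9, Cxcl10, Ccl3 and Cxcl16 lie below 0, as does that of Cx3cl1 by less than 0.01.

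Cxcl9, Cxcl10 and Cxcl11 are the interferon-induced ligands of Cxcr3, the receptor of activated T and NK cells. The level of Cxcl9 (probe set 10531407) was 8.07, 7.83 and 7.87 with DPM and 8.13, 8.60 and 8.33 with vehicle. All 3 DPM values were under the lowest vehicle value, but DPM array 1 and vehicle array 1 were close. The difference was -0.43 (SE 0.14, 95% interval -0.75 to -0.12), or 0.740 times the vehicle level (limma adjusted p = 1). For Cxcl10 (probe set 10531415) the level was 7.62, 7.56 and 7.62 with DPM and 7.91, 8.09 and 7.83 with vehicle. The DPM arrays lay close together and apart from the vehicle arrays, with a difference of -0.34 (SE 0.10, 95% interval -0.57 to -0.11), or 0.788 times. Cxcl11 was not measured, with levels from 6.66 to 7.00 on DPM and from 6.73 to 7.28 on vehicle arrays. Cxcr3 itself had 8.26, 7.97 and 8.19 with DPM and 8.22, 8.13 and 8.10 with vehicle, groups that overlapped, and the 95% interval spanned -0.26 to 0.23.

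**Figure D2:**
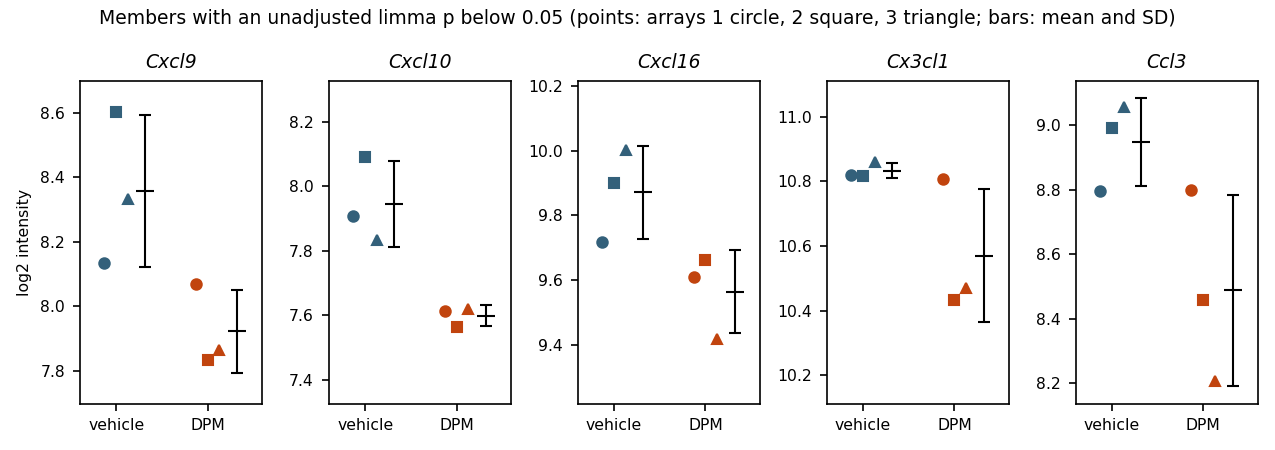
Log2 intensity (y axes, which span at least 1 log2 unit and do not start at 0) on each array for the 5 genes with an unadjusted p under 0.05, vehicle in blue and DPM in red, with group mean and SD. For Cxcl9, Cxcl10, Cxcl16 and Cx3cl1 all DPM points lie under all vehicle points, and for Ccl3 the DPM array 1 point at 8.80 overlaps the vehicle range.

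Other genes that interferon induces were listed for comparison (Ifit1, Ifit2, Ifit3, Irf7, Rsad2, Oas3, Oasl2, Usp18 and Irf1 of 12 listed were measured). All 9 had the lower mean in DPM tumours, with a median difference of -0.71, and 0 were called. Their summed linear intensity was 10032, 4987 and 6651 with DPM and 12014, 10162 and 12094 with vehicle. Within the DPM group the sum, Cxcl9 and Cxcl10 were all lowest on array 2. Within the vehicle group the sum was lowest on array 2, where Cxcl9 and Cxcl10 were highest. T cell markers (3 of 8 measured) summed to 1165 to 1193 on DPM and 1187 to 1294 on vehicle arrays, and NK cell markers to 329 to 351 and 303 to 334. The part of cell content in the Cxcl9 and Cxcl10 differences was not tested. In tumour RNA, fewer cells of a type and less RNA per cell cannot be told apart.

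Because Cxcl10, Cxcl9 and Ccl3 had the smallest unadjusted p-values of the members, the 250 bases before their annotated start sites are shown, with the letters of known response motifs in capitals. The sequences are from RefSeq (GRCm38.p6), 5′ to 3′ on the gene's strand, and RefSeq promoters were matched for 31 of the 43 genes. The motifs searched on both strands were GGGNNNTTCC, a form of the site of NF-kB, the factor of inflammatory signalling; TTCNNTTTC, the core of the interferon-stimulated response element; and TTCNNNGAA, the gamma-activated site of STAT factors. Cxcl9 and Cxcl10 are on chromosome 5 at chr5:92328080-92328329 and chr5:92348890-92349139, and Ccl3 is at chr11:83649379-83649628, all 3 on the minus strand.
Cxcl9: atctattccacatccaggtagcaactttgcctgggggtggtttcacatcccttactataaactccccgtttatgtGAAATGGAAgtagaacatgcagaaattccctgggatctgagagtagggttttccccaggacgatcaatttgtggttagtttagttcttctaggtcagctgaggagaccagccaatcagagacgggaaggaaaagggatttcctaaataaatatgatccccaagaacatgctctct
Cxcl10: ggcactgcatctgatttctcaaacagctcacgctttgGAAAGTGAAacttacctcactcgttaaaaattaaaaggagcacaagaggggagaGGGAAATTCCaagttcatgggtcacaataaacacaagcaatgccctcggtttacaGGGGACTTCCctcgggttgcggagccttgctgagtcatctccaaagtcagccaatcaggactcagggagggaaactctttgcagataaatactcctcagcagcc
Ccl3: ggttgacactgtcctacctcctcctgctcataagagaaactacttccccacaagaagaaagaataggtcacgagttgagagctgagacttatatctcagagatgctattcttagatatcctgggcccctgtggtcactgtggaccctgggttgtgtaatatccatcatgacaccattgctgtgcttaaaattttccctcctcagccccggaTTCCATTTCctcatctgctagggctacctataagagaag
In the Cxcl10 window there were 3 matches, the interferon-response letters GAAAGTGAA on the opposite strand, from 213 to 205 bases before the start, and the NF-kB letters GGGAAATTCC and GGGGACTTCC, from 159 to 150 and from 104 to 95 bases before it. Cxcl9 held GAAATGGAA from 175 to 167 bases before its start, and Ccl3 held TTCCATTTC from 39 to 31. The interferon-response letters were in 7.13% of all 32851 promoters of this length, the NF-kB letters in 4.65% and the gamma-activated letters in 7.02%. Of the 31 genes with a promoter, 5 held the first, 8 the second and 3 the third. The shares are per promoter, while these counts are per gene over any of its promoters. Ccl25 and Ccr6 each had a second promoter. A match of letters is not evidence that a factor binds there.

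Among the transmembrane and XC chemokines, Cxcl16 and Cx3cl1 are made as membrane-anchored proteins whose outer part can be shed. Cxcl16 binds Cxcr6 on activated T and NKT cells and also takes up oxidised lipids. Its level (probe set 10387890) was 9.61, 9.66 and 9.42 with DPM and 9.72, 9.90 and 10.00 with vehicle, without overlap. The difference was -0.31 (SE 0.11, 95% interval -0.56 to -0.05), or 0.807 times the vehicle level (limma adjusted p = 1). The unadjusted limma p of Cxcl16 was 0.023 in the main fit. It was over 0.05 with median centring (0.055), no normalisation between arrays (0.089) and array weights (0.053), among other alternatives. Cx3cl1, or fractalkine, binds Cx3cr1 on monocytes, macrophages and NK cells. Its level (probe set 10574220) was 10.81, 10.43 and 10.47 with DPM and 10.82, 10.82 and 10.86 with vehicle. The groups did not overlap, yet DPM array 1 was close to the vehicle arrays, and the difference was -0.26 (SE 0.11), or 0.834 times. Before normalisation the deposited Cx3cl1 intensities did overlap, at 1346 to 1629 with DPM and 1621 to 2170 with vehicle. The unadjusted limma p of Cx3cl1 was 0.047 in the main fit. It was over 0.05 under some alternatives, such as median centring (0.088) and no normalisation between arrays (0.15).

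The receptor Cx3cr1 was at 10.04, 9.96 and 9.73 with DPM and 10.08, 10.04 and 9.92 with vehicle. Those groups overlapped, and the 95% interval spanned -0.34 to 0.14. Xcl1, or lymphotactin, made by T and NK cells, was at 7.72, 7.63 and 7.54 with DPM and 7.64, 7.86 and 7.41 with vehicle, which overlapped. Its receptor gene Xcr1, a mark of cross-presenting dendritic cells, and Cxcr6 were not measured.

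Among the inflammatory CC ligands of Ccr1 and related receptors, 5 were measured and 0 were called. Ccl3, a macrophage product that attracts monocytes and T cells (probe set 10389231), was at 8.80, 8.46 and 8.21 with DPM and 8.79, 8.99 and 9.06 with vehicle. DPM arrays 2 and 3 were under every vehicle array, and DPM array 1 was just above vehicle array 1. The difference was -0.46 (SE 0.16, 95% interval -0.82 to -0.10), or 0.728 times the vehicle level (limma adjusted p = 1). Ccl4, its close relative and neighbour on chromosome 11, was at 7.53, 7.59 and 7.75 with DPM and 7.38, 7.60 and 7.62 with vehicle. These values overlapped, and the difference was 0.09 (SE 0.11). Whether Ccl3 and Ccl4 probes share signal was not tested.

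Ccl5, which attracts T cells, was at 8.93, 8.91 and 9.15 with DPM and 9.01, 9.20 and 9.23 with vehicle. The difference of -0.15 (SE 0.11) came with overlapping groups. Ccl6 and Ccl9, rodent chemokines of myeloid cells, differed by -0.06 (SE 0.39) and 0.12 (SE 0.23). Ccl6 was at 9.84, 8.39 and 8.10 with DPM and 8.79, 8.76 and 8.96 with vehicle, so that the DPM group held both the highest and the lowest values. Ccl9 was at 9.19, 8.67 and 8.43 with DPM and 9.02, 8.36 and 8.58 with vehicle, again with overlap. Ccr1, the shared receptor, was not measured.

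In the group listed as monocyte-attracting ligands (Ccl2, Ccl7 and Ccl8), 3 of 3 measured genes had the lower mean in DPM tumours, and none was called. Ccl2 and Ccl8 each took the other sign under 2 alternatives, and Ccl7 under 0. Ccl2, the main ligand of Ccr2, was at 8.44, 8.06 and 8.38 with DPM and 8.22, 8.33 and 8.58 with vehicle, and the 95% interval spanned -0.41 to 0.24. Ccl7, a second ligand of Ccr2, was at 8.62, 7.97 and 8.31 with DPM and 8.38, 8.73 and 8.83 with vehicle. The groups overlapped through DPM array 1, and the difference was -0.34 (SE 0.19, 95% interval -0.77 to 0.08). Ccl8, which in mice acts mainly on Ccr8, was at 9.40, 7.43 and 7.27 with DPM and 7.76, 8.63 and 8.74 with vehicle. Its DPM values spread by an SD of 1.18, and the 95% interval of its difference, from -1.60 to 0.91, was the only one of the 30 that reached past 1 log2 unit. Ccr2 was not measured, with levels from 6.30 to 7.10.

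Macrophage markers (Adgre1, Csf1r, Cd68, C1qa, C1qb, C1qc, Mrc1 and Mertk) summed to 10950, 9289 and 8985 with DPM and 9657, 10614 and 11892 with vehicle. Of the 8, 7 had the lower mean in DPM tumours and 0 were called, while Mertk had a difference of 0.52. Monocyte markers were thinly measured, at 1 of 5. The order of the macrophage sums within the DPM group, with array 1 highest and array 3 lowest, was also that of Ccl8, Ccl6, Ccl9, Ccl3 and Ccl11, but Ccl2 and Ccl7 were lowest on array 2. Among vehicle arrays the sum was lowest on array 1 and highest on array 3, as were Ccl2, Ccl7, Ccl8 and Ccl3 but not Ccl6, Ccl9 or Ccl11. The DPM order was not particular to macrophages. Sums for fibroblasts (8719, 7281 and 3994), endothelium (3886, 3340 and 3106), adipocytes, dendritic cells, monocytes and NK cells also fell from array 1 to 3. Those for neutrophils, T cells, B cells and eosinophils did not. Cxcl12, Cxcl13, Cxcl14, Ccl22, Cx3cr1 and Xcl1 had that order too. The part of any of these cell types in the ligands was not tested.

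The CXC ligands that attract neutrophils, mainly through Cxcr2, were measured for 1 of 5 genes. Cxcl1 was at 8.14, 8.21 and 8.22 with DPM and 8.41, 8.22 and 8.35 with vehicle, which met at one end, with a difference of -0.14 (SE 0.09, 95% interval -0.35 to 0.08). Cxcl2 had a mean of 6.18 ± 0.19 in DPM and 6.51 ± 0.39 in vehicle tumours (SD, n = 3), and without the filter its difference had a 95% interval of -0.80 to 0.15. Cxcl3, Cxcl5 and Cxcl15 ranged from 5.41 to 6.81 over the 6 arrays. The NF-kB letters GGGAATTTCC stood in the promoters of Cxcl1, Cxcl2 and Cxcl3 alike, from 71, 97 and 73 bases before the start. Neutrophil markers summed to 5856 to 7411 on DPM and 5282 to 9337 on vehicle arrays, of which Ltf, also a milk protein gene, made up most.

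Of the ligands that attract eosinophils, Ccl24 and Ccl11 were measured and neither was called. Ccl24, or eotaxin-2, was at 7.55, 7.65 and 7.44 with DPM and 7.29, 7.38 and 7.40 with vehicle. It was the only member with all DPM values above all vehicle values, with a difference of 0.19 (SE 0.10, 95% interval -0.04 to 0.41) at a level close to the filter. With array weights that difference was 0.23, at an unadjusted limma p of 0.039 (under 0.05 for 4.67% of all genes). Ccl11, or eotaxin-1, a product of fibroblasts among other cells, was at 9.70, 9.20 and 8.61 with DPM and 9.36, 9.43 and 9.38 with vehicle. Its DPM values spanned the vehicle values on both sides, and the 95% interval of the difference was -0.77 to 0.33. Fibroblast markers (6 of 6 measured) summed to 8719, 7281 and 3994 with DPM and 7411, 9077 and 7161 with vehicle, lowest on DPM array 3 as Ccl11 was, and their part was not tested. Ccr3 was not measured, and of the eosinophil markers 1 of 4 was.

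Ccl17 and Ccl22, the dendritic cell ligands of Ccr4 that attract regulatory and type 2 helper T cells, did not separate the groups. Ccl17 had a mean level of 7.73 ± 0.082 with DPM and 7.79 ± 0.29 with vehicle (SD, n = 3 each), and all 3 DPM values lay within the vehicle range. Ccl22 was at 7.86, 7.69 and 7.44 with DPM and 7.41, 7.74 and 7.36 with vehicle, with a difference of 0.16 (SE 0.15). The gene order Ccl22, Cx3cl1, Ccl17 on chromosome 8 is uninterrupted by other protein-coding genes, and the differences of these neighbours were 0.16, -0.26 and -0.06.

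Epithelial ligands and their receptors included Ccl28, which draws IgA plasma cells to the lactating gland through Ccr10. Ccl28 ranged from 8.25 to 8.63 on DPM and from 7.75 to 8.84 on vehicle arrays, and its difference of 0.27 (SE 0.26) was the highest of the 30. That difference was 0.05 without vehicle replicate 2 and 0.60 without vehicle replicate 1. In the latter fit its unadjusted limma p was under 0.05, as for 3.59% of all genes. Ccl20, the ligand of Ccr6, ranged from 7.65 to 7.83 on DPM and from 7.59 to 7.89 on vehicle arrays. For Ccl25, the thymic and gut ligand of Ccr9, the ranges were 8.46 to 8.62 and 8.41 to 8.58. Ccl25 was the only member with a second probe set, which ran from 7.21 to 8.26 over the 6 arrays. Ccr10 differed by -0.08 (SE 0.09), and Ccr6 and Ccr9 were not measured. Of the 4 measured in this group, 1 had the lower mean in DPM tumours, and 0 were called.

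The homeostatic ligands and receptors were measured for 6 of 7 genes, all 6 with the lower mean in DPM tumours, by 0.01 to 0.23 in size, and 0 called. All of them but Cxcl12 took the other sign under some alternative. Cxcl12, the stromal ligand of Cxcr4 and of the scavenging receptor Ackr3, ranged from 8.21 to 8.60 on DPM and from 8.33 to 8.62 on vehicle arrays. Cxcr4 was at 8.49 on DPM array 2 and between 8.99 and 9.57 on the other 5 arrays, and its 95% interval spanned -0.72 to 0.57. Without DPM replicate 2 its difference was 0.27. Ackr3 differed by -0.02 (SE 0.13) and Ccr7, which leads T cells and dendritic cells to lymph nodes, by -0.07 (SE 0.15). Cxcl13, the B cell attractant of follicles, was at 8.45, 6.98 and 6.80 with DPM and 7.54, 7.32 and 7.41 with vehicle. Cxcl14, made by epithelium and fibroblasts, was at 9.58, 9.03 and 8.54 with DPM and 9.12, 9.27 and 9.46 with vehicle. In both, DPM array 1 was highest and DPM array 3 lowest of the 6. Cxcr5, the receptor of Cxcl13, was not measured, and 1 of 5 B cell markers was.

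**Figure D3:**
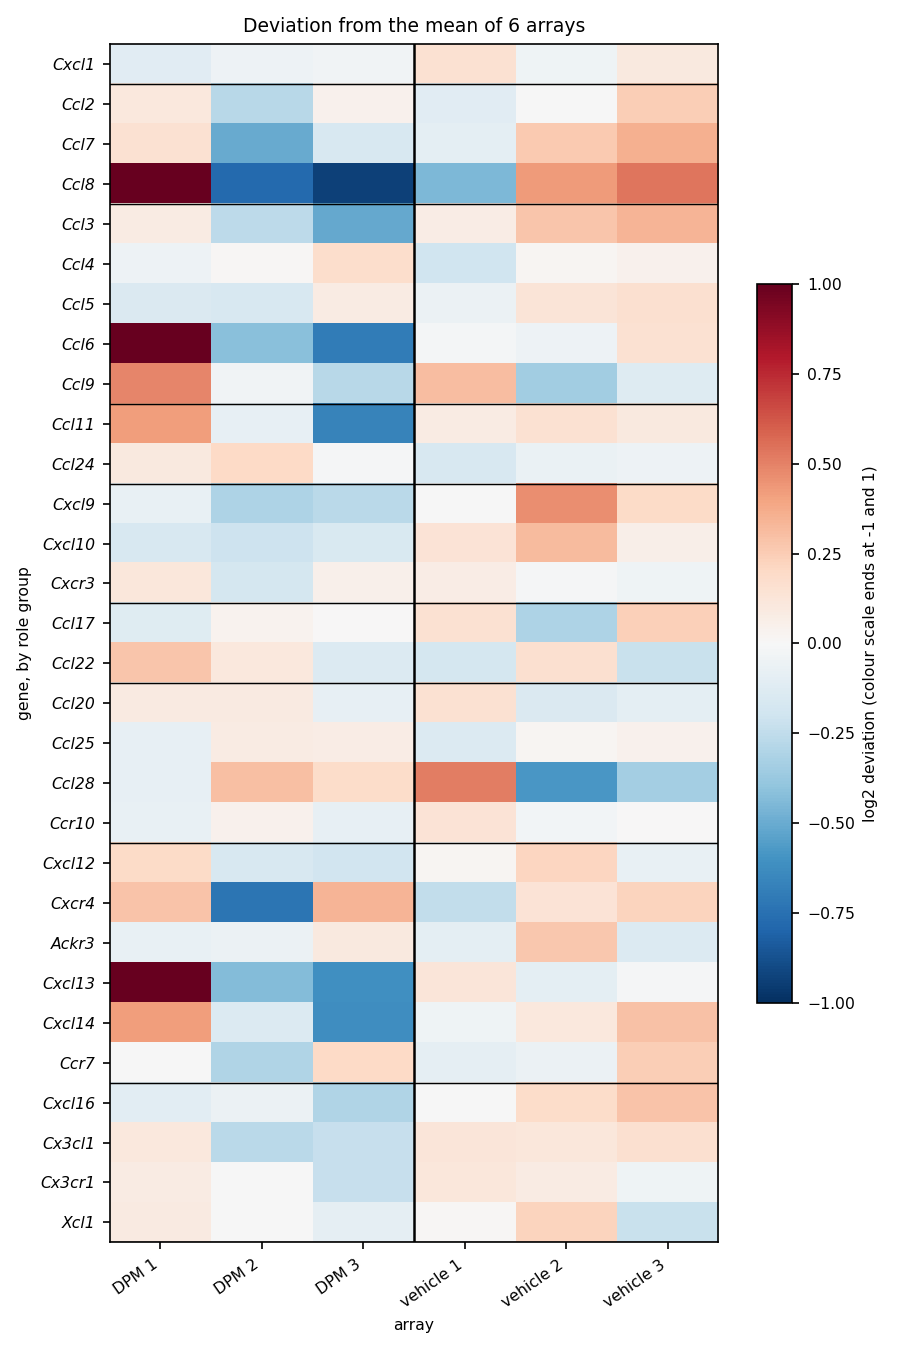
Deviation of each measured gene (rows, grouped by role) from its mean over the 6 arrays (columns), in log2 units, with colours ending at -1 and 1. Ccl8, Ccl6 and Cxcl13 are deep red on DPM array 1 and blue on DPM arrays 2 and 3. Cxcl9 and Cxcl10 lie below their means on all 3 DPM arrays, but by little on this scale, and Cxcl9 on DPM array 1 is close to its mean.

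The DPM arrays differed among themselves in these genes. Of the 30, 8 had their highest value of the 6 on DPM array 1 (26.7%, against 16.3% of all genes tested), 8 on vehicle array 3 (26.7%, against 15.5%), and 2 on each of the other DPM arrays. The lowest value lay on DPM array 2 for 9 genes (30%, against 14.3%) and on DPM array 3 for 10 (33.3%, against 20.2%). The median SD within groups was 0.186 for the members and 0.135 for all genes, and among members it ran from 0.0766 to 0.921. Adipocyte markers summed to 2542 on DPM array 1 and to 807 to 1241 on the other 5 arrays, and skeletal muscle markers to 2707 on DPM array 1 and 2632 on vehicle array 3 against 1341 to 1771 elsewhere. Their part in the values of array 1 was not tested.

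Without DPM replicate 1, 11 of the 30 had an unadjusted p under 0.05, where 5.04% of all genes did. All 11 had the lower mean in DPM tumours (3.1% of all genes), and 0 were called, with a smallest limma adjusted p of 0.487. They were the same 5 as with all arrays and Ccl7, Ccl8, Ccl6, Ccl11, Cxcl13 and Cxcl14. The difference became -1.03 for Ccl8, -0.59 for Ccl6, -0.53 for Cxcl13, -0.48 for Ccl11 and -0.50 for Cxcl14. Without DPM replicate 3, the differences of Ccl8, Ccl6, Cxcl13, Ccl11 and Cxcl14 were 0.03, 0.28, 0.30, 0.06 and 0.02, so that their direction turned with the array left out.

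Cxcl10 and Cxcl9 had an unadjusted p under 0.05 with any single array left out. Their differences then ran from -0.40 to -0.27 for Cxcl10 and from -0.54 to -0.31 for Cxcl9. These fits share most of their arrays. The share of all genes that stayed under 0.05 in every such fit was not worked out. The mean level was at percentile 35.8 of all genes for Cxcl10 and 43.4 for Cxcl9. The stricter filter among the alternatives therefore left both out. Without both arrays numbered 3, Cxcl10 was the only member at that p (1 of 30, against 2.11% of all genes), with a difference of -0.41. There, Cxcl9 differed by -0.42, Ccl3 by -0.27, Cxcl16 by -0.17 and Cx3cl1 by -0.20.

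**Figure D4:**
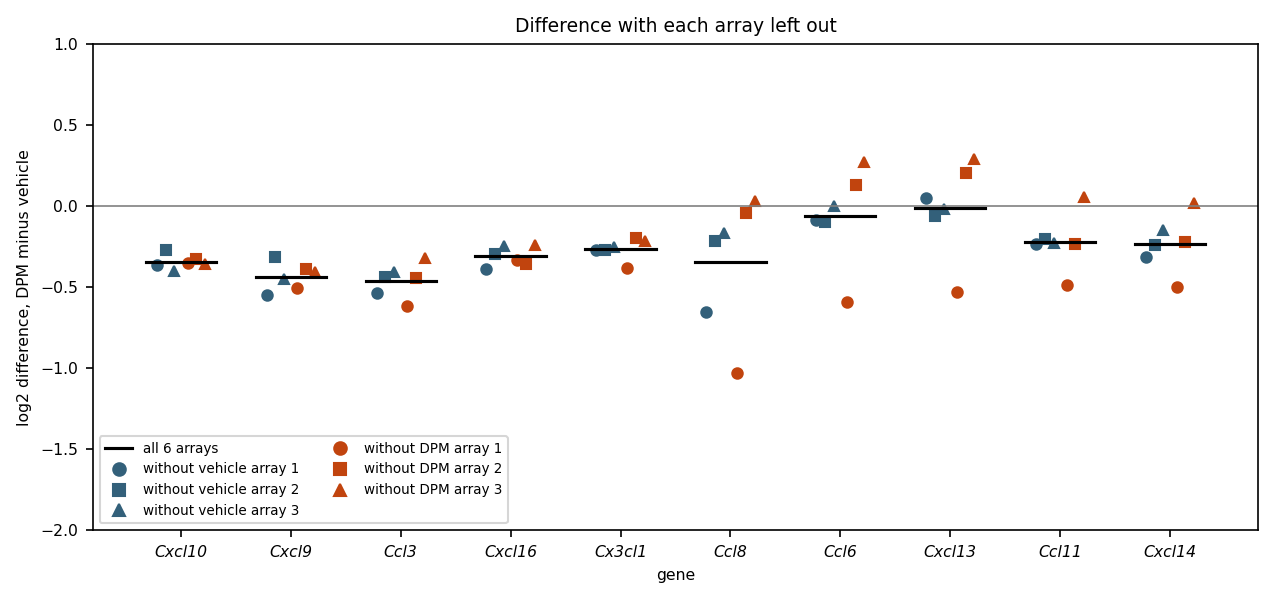
Log2 difference between DPM and vehicle tumours (y axis) with all 6 arrays (black lines) and with each array left out in turn (points). The genes (x axis) are the 5 of smallest p and 5 of the ligands highest on DPM array 1, the latter chosen after their values were seen. Ccl9 and Ccl22 were also highest there and are not shown. With an array left out, their differences ran from -0.10 to 0.30 and from 0.06 to 0.28. The points of Cxcl10 to Cx3cl1 all lie below 0, and those of Ccl8, Ccl6, Cxcl13, Ccl11 and Cxcl14 lie on both sides.

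Beyond these members, the chemokine system was represented by further ligands and receptors and by the proteins that carry the signal inside the cell. Of 16 further ligands and receptors listed, 7 were measured, 3 with the lower and 4 with the higher mean in DPM tumours, and 0 were called. Among 29 genes of G proteins, arrestins, receptor kinases and Rac regulators, 27 were measured, 13 lower and 14 higher, with 0 called. The smallest unadjusted p-values were those of Pik3cg, the phosphoinositide kinase under chemokine receptors, with a difference of 0.27 (SE 0.12), and Rgs2, which shuts off G protein signals, with -0.91 (SE 0.39). Ccrl2, a binding protein that presents chemerin, differed by -0.21 (SE 0.10), and Ccl19, a ligand of Ccr7, by 0.13 (SE 0.09). None of these passed the threshold (limma adjusted p = 1 each).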

How the data were processed

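RNA of 6 tumours was measured on 1-colour Affymetrix arrays, from 100 ng of total RNA of solid tumour tissue, per the labels' protocols. The authors deposited 1 linear intensity per probe set and array (35556 probe sets), and how background, probes and scale were handled is, in the sources used here, not given. Deposited medians ran from 270 to 301, so values under 1 were raised to 1, then log2 was taken and arrays were quantile-normalised. GEO's platform annotation named 1 gene for 21789 probe sets, several for 1621 (not used) and none for 12146. Of the 21789, 21698 took their symbol from RefSeq through the Entrez identifier, whether or not it differed from the annotated one. The probe set of highest mean stood for each gene, and 4985 of 19938 genes below the 25th percentile were left out. The remaining 14953 went into limma 3.58.1 (R 4.3.3; lmFit and eBayes with trend, two-sided, Benjamini-Hochberg over all of them, threshold 0.05). The number of arrays, 3 per group, limits the precision. The labels call the samples biological replicates and do not say which mouse each came from.

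The members and lists were chosen with earlier results of these data known. All 43 members were to be named. Values on every array are given for the 10 measured members of smallest p and for the measured members of their role groups (Ccl17 as means), and Cxcl13 and Cxcl14 were added after their values were seen. The test was tried on simulated arrays. Replicate numbers were not taken as pairs. Alternatives are in the closing section.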

Additional observations from a re-analysis of the deposited data

How the results depend on the processing

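The fit called 0 genes and 0 members under every one of the 16 alternatives, counting each left-out array as one. They were no filter or the 50th percentile, median centring or no normalisation between arrays, the mean of all probe sets, 16 added before log2, no trend, array weights, the replicate block, each array left out and both arrays numbered 3 left out. The median difference of the measured members was -0.08 with all arrays, from -0.14 to -0.02 with an array left out, and -0.15 with the 50th percentile filter, which left 13 members. Of 463 member differences under alternatives, 38 had another sign than with all arrays, none with an interval that excluded 0 in either fit. Of the 30 members, 16 never turned. The 463 include fits that cannot move a difference, namely those with another filter, no trend or the replicate block. The mean of all probe sets could move only that of Ccl25. The count of 463 therefore overstates how often a sign could have turned. Members at an unadjusted p under 0.05 numbered 5 of 43 without the filter (3.12% of all genes) and 1 to 11 of those measured elsewhere. The number was lowest without both arrays numbered 3 (2.11%) and highest without DPM replicate 1 (5.04%). They numbered 3 with median centring (2.9%) and 3 without normalisation (2.29%), where Ccl3, Cxcl9 and Cxcl10 remained. They numbered 2 without DPM replicate 3 (2.82%), vehicle replicate 2 (4.56%) or vehicle replicate 3 (3.02%). The only ones with the higher mean in DPM tumours were Ccl24 with array weights and Ccl28 without vehicle replicate 1.

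Deviations from the group means correlated by -0.12, 0.11 and 0.371 between arrays of the same number, so the numbers were not read as pairs. With the replicate block 0 members were called and the smallest adjusted p was 0.856. In a balanced design the block cannot move the differences themselves. The best match in the vehicle group was array 2 for DPM array 1, array 1 for DPM array 2 and array 3 for DPM array 3 (0.166, 0.218 and 0.371). These pairs also shared 999, 955 and 1006 identical deposited values, against 418 to 575 for the other pairs of arrays. The labels give no such pairing, and no fit used it.

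With no detection calls used here, low levels such as those of Cxcl15 or Cxcr5 cannot be told from background, and 3 arrays per group leave 95% intervals of 0.213 to 1.25 log2 units to either side.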
